A study of Mus musculus with 9 samples.

Results

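Klra4, Medag, Mmp3, Ccdc184, Lrrn4cl, Loxl4, Cdsn, Ankrd1, Twist2 and Arhgdib are 10 genes chosen by their array level in PFGC, the cells labelled putative female germ cells, over that in oocytes and in spermatogonial stem cells (SSC). An earlier analysis of the same arrays had found each of them at least 2-fold above both other groups in PFGC, and every probe that the platform annotation gives to these symbols was taken. The platform gives them 23 probes. They are 10 of the 11077 genes tested and 10 of the 79 genes (0.713% of those tested) that met that 2-fold rule here. Because PFGC levels chose the genes, their PFGC differences are described below and not tested.

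The study profiled total RNA on 9 Illumina expression arrays, all from mice of strain C57BL/6. PFGC were collected by magnetic sorting (3 arrays), oocytes also by magnetic sorting (3 arrays), and SSC, the testis germ cells that renew themselves and give rise to sperm, were taken from culture (3 arrays). The series title presents PFGC as cells derived from SSC, and the labels used here give no antibody, age, sex or tissue of origin for any group and name no transgene or treatment. Nothing in the labels says whether the 3 samples of a group came from separate cultures or animals, so the p-values below measure only the spread between samples, which may be technical. Between 38.9% and 41.8% of the 45281 probes were detected per array. As a check of the labels, all 11 oocyte markers measured were called higher in PFGC than in SSC, and 10 of 11 markers of undifferentiated spermatogonia were called lower (limma, adjusted p under 0.05, which 24.5% of all genes passed as higher and 27.6% as lower). The same 11 and 10 counts were found for oocytes against SSC, and all 11 spermatogonial markers were detected on all 3 SSC arrays. In the bulk RNA of such samples, fewer cells of a type and less RNA per cell cannot be told apart. In addition, 6 of 9 measured Sertoli cell genes were called higher in PFGC than in sorted oocytes (7.96% of all genes were), so the PFGC arrays also carry RNA of genes known from Sertoli cells of the testis. The SSC arrays carry such RNA too: 7 of the 9 were called lower in PFGC than in SSC (27.6% of all genes were), and 1, Rhox5, was called higher (24.5% of all genes were).

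The 10 genes belong to no single pathway. Mmp3 and Loxl4 encode secreted enzymes that remodel the extracellular matrix: matrix metalloproteinases cut matrix proteins, and lysyl oxidases crosslink collagen and elastin. Ankrd1 is a much-used target gene of the coactivator YAP, which acts through TEAD factors in spread or stretched cells, and Twist2 is a transcription factor of mesenchymal cells. Arhgdib is a gene abundantly expressed in blood cells, Klra4 encodes the natural killer (NK) cell receptor Ly49D, Cdsn encodes an adhesive glycoprotein of cornified epidermis, and Medag was named for its role in fat cell formation.

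The promoters of Mmp3, Ankrd1 and Klra4 are shown because Mmp3 and Ankrd1 are well-known targets of AP-1 and of YAP with TEAD, and because Klra4 had the largest PFGC difference of the 10. Each line holds the 250 bases before the annotated transcript start, 5′ to 3′ on the strand of the gene, from RefSeq (GRCm38.p6). Capitals mark matches to 5 motifs, searched on both strands. The motif of AP-1 was spelled TGANTCA, where N stands for any base. TEAD factors were given the letters GGAATG in the search. The TATA box, at which many promoters position the polymerase, was searched as TATAAA. The E-box form that Twist proteins bind was searched as CATNTG. Factors of the STAT family were represented by TTCNNNGAA.
Mmp3, chr9:7445572-7445821, plus strand: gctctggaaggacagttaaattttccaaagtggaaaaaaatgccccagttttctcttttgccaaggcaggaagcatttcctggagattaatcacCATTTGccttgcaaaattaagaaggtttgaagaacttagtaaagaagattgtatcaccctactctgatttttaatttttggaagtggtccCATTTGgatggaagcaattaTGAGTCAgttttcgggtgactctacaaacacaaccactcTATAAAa
Ankrd1, chr19:36119845-36120094, minus strand: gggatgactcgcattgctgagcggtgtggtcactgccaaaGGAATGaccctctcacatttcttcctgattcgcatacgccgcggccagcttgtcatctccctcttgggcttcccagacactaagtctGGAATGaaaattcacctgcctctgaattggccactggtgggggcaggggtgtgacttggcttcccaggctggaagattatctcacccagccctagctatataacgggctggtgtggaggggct
Klra4, chr6:130067272-130067521, minus strand: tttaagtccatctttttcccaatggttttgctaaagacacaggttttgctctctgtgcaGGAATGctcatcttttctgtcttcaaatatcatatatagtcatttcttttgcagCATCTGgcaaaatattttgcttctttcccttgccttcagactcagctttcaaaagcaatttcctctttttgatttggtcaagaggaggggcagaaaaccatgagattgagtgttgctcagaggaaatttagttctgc

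Mmp3 held the AP-1 motif, which starts 46 bases before the transcript start, and a match to the letters TATAAA that begins 7 bases before it. Ankrd1 held the TEAD motif at 210 and again at 123 bases before the start, and Klra4 held it once, at 191 bases. Promoter sequence was matched for 9 of the 10 genes, in 13 windows because some genes have several annotated starts, and for all but Lrrn4cl. Of these 13 windows, 1 held the AP-1 motif and 4 the TEAD motif (in 3 genes), against 6.75% and 12.6% of all 32851 promoter windows of the same length. The E-box, the motif with the most matches, was in 6 of the 13 windows and in 35% of all windows. The TATA box was in 2 of 13 windows (12.4% of all) and the STAT motif in 2 of 13 (7.02% of all). A match is a description of these letters, and factor binding was not measured.

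Levels below are log2 intensities after background correction and quantile normalization. A probe was called detected on an array at a detection p under 0.01, and each gene is given by its brightest probe among those detected on at least 3 of the 9 arrays. The lowest value at which any probe was detected lay between 5.14 and 5.36 on the 9 arrays, so values below that are not measured levels. Where no array of the lower group detected a probe, a lower bound ("at least") is given, with that group set on each array at the lowest detected value or at its own, whichever was higher. Where only some arrays of a lower group detected it, their number is given, and the fold rests in part on values below the limit. On this scale all 3 PFGC arrays lay above all 6 other arrays for each of the 10 genes, as they did for 2.41% of all genes tested, and the rule that chose the genes leads to that separation.

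**Figure D1:**
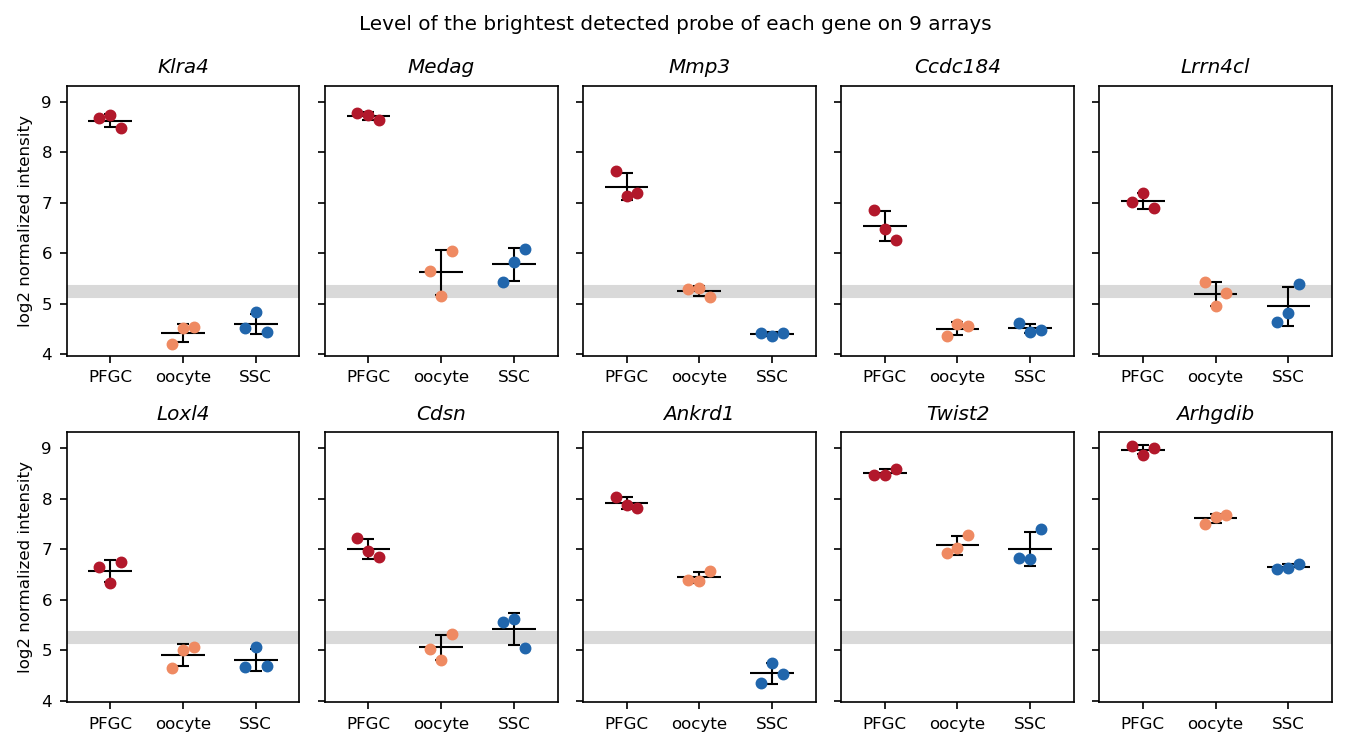
Level of each of the 10 genes on the 9 arrays (y axis, log2 normalized intensity; points are arrays, the long bar is the group mean and the error bar 1 SD, n = 3), with PFGC left, oocytes in the middle and SSC right. The grey band, 5.14 to 5.36, is the lowest level at which any probe was detected on an array; the PFGC points lie above it for every gene, while the oocyte and SSC points of Klra4, Ccdc184 and Loxl4 lie below it.

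Among the matrix enzymes, Mmp3 (stromelysin 1, which cuts proteoglycans and activates other metalloproteinases) measured 7.63, 7.14 and 7.19 on the PFGC arrays, 5.29, 5.32 and 5.14 on the oocyte arrays and 4.42, 4.35 and 4.43 on the SSC arrays. The 3 groups form separate steps with no overlap, and the probe was detected on 3 PFGC arrays, on 2 oocyte arrays and on no SSC array. PFGC lay 4.20-fold above oocytes, and at least 4.14-fold above SSC. The other 2 Mmp3 probes were detected on PFGC arrays alone and gave at least 2.70-fold and 1.78-fold above oocytes, and at least 2.59-fold and 1.71-fold above SSC. All 3 Mmp3 probes therefore place PFGC highest, with sizes that differ by probe.

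Loxl4, a member of the lysyl oxidase family, measured 6.65, 6.33 and 6.74 on the PFGC arrays, 4.66, 5.01 and 5.06 on the oocyte arrays and 4.67, 5.06 and 4.70 on the SSC arrays. Oocyte and SSC arrays overlap, and none of those 6 arrays detected the probe. PFGC lay at least 2.58-fold above oocytes and at least 2.47-fold above SSC. A second Loxl4 probe did not separate the groups: it read 6.29, 5.63 and 5.17 in PFGC, 5.52, 4.83 and 5.06 in oocytes, and 5.03, 5.26 and 4.88 in SSC. The third was detected on no array, so the Loxl4 difference rests on 1 of 3 probes.

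Of the 2 genes of nuclear factors, Ankrd1 encodes an ankyrin repeat cofactor best known from heart muscle. It measured 8.04, 7.87 and 7.82 on the PFGC arrays, 6.40, 6.37 and 6.57 on the oocyte arrays and 4.35, 4.76 and 4.54 on the SSC arrays. The groups do not overlap, and oocytes stand between PFGC and SSC. PFGC lay 2.77-fold above oocytes and at least 6.24-fold above SSC, where no array detected the probe. A dimmer second probe was detected on PFGC arrays alone, at least 1.39-fold above oocytes and at least 1.33-fold above SSC.

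Twist2 encodes a basic helix-loop-helix repressor of the dermis and other mesenchyme, and the platform has 1 probe for it. It measured 8.47, 8.47 and 8.59 in PFGC, 6.93, 7.03 and 7.29 in oocytes and 6.83, 6.81 and 7.40 in SSC. All 9 arrays detected it, and oocyte and SSC arrays overlap while the PFGC arrays stand apart. PFGC averaged 8.51 ± 0.07, against 7.08 ± 0.19 in oocytes and 7.01 ± 0.33 in SSC (SD, n = 3 each), or 2.69-fold above oocytes and 2.83-fold above SSC.

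Arhgdib, known for its high expression in blood cells, measured 9.05, 8.87 and 9.0 in PFGC, 7.5, 7.65 and 7.68 in oocytes and 6.61, 6.63 and 6.71 in SSC. The 3 groups form separate steps, and all 9 arrays detected the probe. PFGC lay 2.58-fold above oocytes and 5.0-fold above SSC. Its second probe was detected on no array.

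Klra4 had the largest difference of the 10 genes. Ly49D, its product, is an activating receptor that signals through the adaptor Tyrobp (DAP12). The deposited signals of its brightest probe were 465, 528 and 352 in PFGC, 90.3, 112 and 109 in oocytes and 101, 110 and 100.4 in SSC, and the array medians of all probes were 104 to 122. After normalization the levels were 8.68, 8.74 and 8.47 in PFGC, 4.21, 4.52 and 4.54 in oocytes and 4.53, 4.83 and 4.44 in SSC. With this background correction PFGC lay at least 10.7-fold above oocytes and at least 10.2-fold above SSC, which have no detected array; without it the log2 difference to the nearer group was 2.18. A second probe gave at least 6.40-fold above oocytes and 6.12-fold above SSC, and the remaining 2 Klra4 probes were detected on no array.

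Klra4 belongs to the Ly49 family of closely related NK receptor genes, whose probes may report each other's transcripts because no probe sequence was aligned here. The 12 other Klra genes on the platform had 20 probes, and 0 of them were detected on any array. Tyrobp was detected on 2 of 3 PFGC arrays and called lower in PFGC than in oocytes (log2 difference −0.58, adjusted p = 0.0436, limma), although that call is lost under 11 of 19 alternatives, each oocyte array left out among them. With the replicate block Tyrobp was also called lower than in SSC. Of 9 NK cell markers with a probe, 7 were detected on no PFGC array: Ncr1, Klrb1c, Nkg7, Gzmb, Klrd1, Eomes and Tbx21. The single NK marker that could be tested was Prf1, the gene of perforin, whose normalized intensity was 654 to 847 in PFGC, 268 to 340 in oocytes and 1025 to 2308 in SSC. Prf1 was called higher in PFGC than in oocytes (log2 difference 1.37, adjusted p = 0.00844) and lower than in SSC (log2 difference −1.01, adjusted p = 0.00712).

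Cdsn, for corneodesmosin, measured 7.22, 6.96 and 6.84 in PFGC, 5.03, 4.81 and 5.33 in oocytes and 5.57, 5.62 and 5.05 in SSC. Oocyte and SSC arrays overlap around the detection limit, with 1 oocyte and 2 SSC arrays detected. The mean levels give 3.86-fold above oocytes and 3.01-fold above SSC, with the oocyte mean of 5.06 below the limit. Its other 2 probes passed no filter, since 1 was detected on a single PFGC array and the other on none.

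Medag measured 8.78, 8.74 and 8.63 on the PFGC arrays with its brightest probe, 5.65, 5.16 and 6.05 on the oocyte arrays and 5.44, 5.83 and 6.09 on the SSC arrays. PFGC lay 8.54-fold above oocytes and 7.63-fold above SSC, and oocytes and SSC overlap. The second Medag probe gave another order of groups: 6.38, 6.72 and 5.78 in PFGC, 4.52, 5.0 and 4.5 in oocytes and 8.30, 7.83 and 7.58 in SSC. By that probe PFGC were 3.04-fold below SSC and at least 2.12-fold above oocytes, and SSC were at least 6.46-fold above oocytes. The statement that Medag peaked in PFGC therefore holds for 1 of its 2 probes.

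Ccdc184 and Lrrn4cl are named for sequence features of their proteins. The 1 Ccdc184 probe measured 6.86, 6.48 and 6.27 in PFGC, 4.36, 4.61 and 4.56 in oocytes and 4.62, 4.45 and 4.47 in SSC, which puts PFGC at least 2.51-fold above oocytes and at least 2.40-fold above SSC, neither of which had a detected array. Lrrn4cl measured 7.02, 7.20 and 6.89 in PFGC, 5.42, 4.95 and 5.22 in oocytes and 4.64, 4.82 and 5.39 in SSC, where 1 array of each lower group detected it. The mean levels give 3.58-fold above oocytes and 4.25-fold above SSC, with the SSC mean of 4.95 below the limit, and the arrays of the 2 lower groups overlap.

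Over all 23 probes, 15 were detected on all 3 PFGC arrays, 2 (Twist2 and Arhgdib) on all 9 arrays and 5 on no array. Of the 16 probes kept by the filter, 14 had every PFGC array above every other array, as 2.05% of all kept probes did, and the 2 exceptions were the second probes of Medag and Loxl4. A fold on this scale depends on the background correction. With no background correction, or with the processed intensity that the authors deposited, PFGC were the highest group for all 10 genes but reached 2-fold above both others for only 4 of them, Klra4, Medag, Twist2 and Arhgdib. The log2 difference to the nearer group was then 2.18 for Klra4 and 1.84 for Medag, and 0.66 for Loxl4, the smallest.

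**Figure D2:**
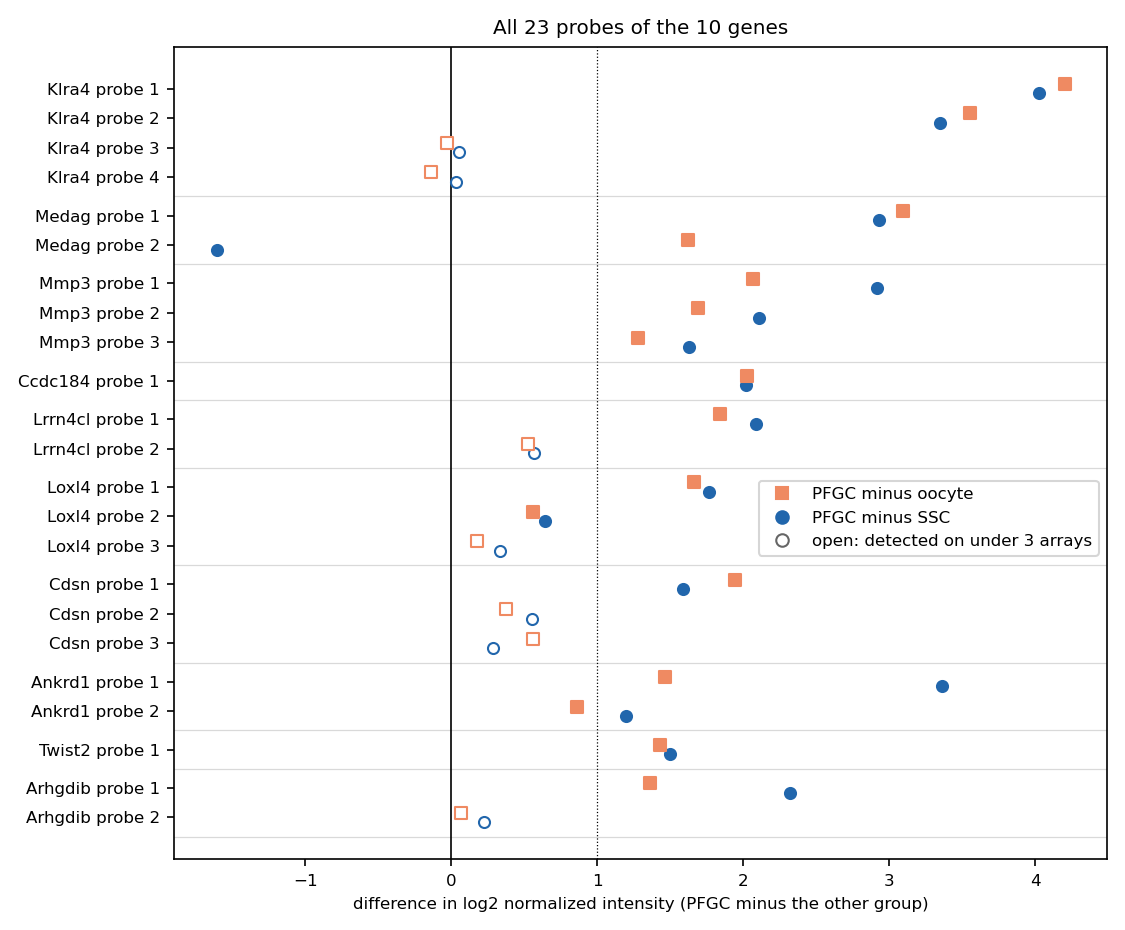
Difference in log2 normalized intensity of PFGC minus oocytes (squares) and PFGC minus SSC (circles) for each of the 23 probes, ordered by gene and by brightness (y axis); open symbols are probes detected on under 3 arrays, and the dotted line marks a 2-fold difference. Filled symbols lie right of 0 except Medag probe 2 against SSC, at −1.61.

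By the smaller of its 2 PFGC folds, Klra4 ranked 5 among the 79 genes that met the rule, Medag 7, Mmp3 13, Ccdc184 15, Lrrn4cl 18, Loxl4 33, Cdsn 36, Ankrd1 44, Twist2 47 and Arhgdib 50. Prl2c2, Prl2c4 and Prl2c3, prolactin family genes that encode proliferins, ranked 1 to 3. The last genes inside the 2-fold limit were Ube2u (2.03-fold) and Nme5 (2.01-fold), and the first outside it were Hoxa2 (1.999-fold) and H2-DMb1 (1.98-fold). None of the 10 genes lies next to the limit on this scale, Arhgdib being nearest at 2.58-fold.

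**Figure D3:**
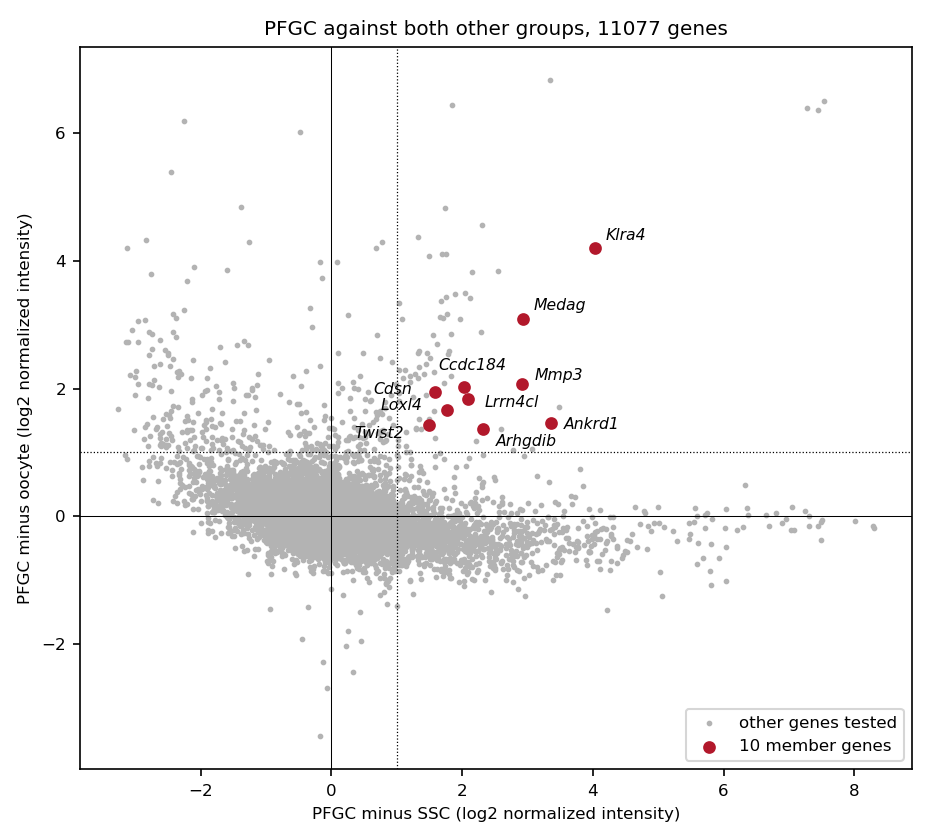
Differences in log2 normalized intensity of PFGC minus SSC (x axis) and PFGC minus oocytes (y axis) for the 11077 genes tested; each grey point is a gene, red points are the 10 chosen genes and dotted lines mark 2-fold. Of the 10, Klra4 lies farthest out at 4.03 and 4.20, behind Prl2c2, Prl2c4 and Prl2c3 among others, and all 10 lie in the upper right corner that the rule selects.

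The difference between oocytes and SSC was not itself used to choose the genes, so it was tested, although the choice required both groups to lie below PFGC. Of the 10 genes, 3 were called higher in oocytes than in SSC and 0 lower (limma, Benjamini-Hochberg over all 11077 genes; 3 and 0 also at an unadjusted p under 0.05), against 28.6% of all genes called higher and 33.1% called lower, 61.7% in all. Klra4, Ccdc184 and Loxl4 passed the filter through PFGC arrays alone. Mmp3 (2 oocyte arrays and no SSC array detected) and Lrrn4cl (1 oocyte and 1 SSC array) also needed PFGC arrays to pass it. The 3 of 10 called therefore cannot be read against that background. The median log2 difference of the 10 was 0.09 against −0.07 over all genes. Ankrd1 was at least 2.26-fold higher in oocytes than in SSC, where no array detected it (adjusted p = 8.22e-07). Arhgdib was 1.94-fold higher in oocytes (log2 difference 0.96, 0.72 to 1.19, adjusted p = 2.45e-05). Mmp3 was 1.80-fold higher (0.85, 0.54 to 1.16, adjusted p = 0.000419), but only 2 oocyte arrays and no SSC array detected it. No bound above 1 can be given for it, and it entered this test only because PFGC arrays detected it, the group where it is high. In these 3 genes every oocyte array lay above every SSC array, as in 30.5% of all genes. With the dimmest kept probe the calls of Mmp3 and Ankrd1 are lost (0.35 and 0.33, adjusted p = 0.118 each). Medag is then called lower in oocytes than in SSC (−3.23, adjusted p = 2.53e-06), as it is with the mean of its probes.

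The other 7 genes were not called by their brightest probe, which does not show equal levels. Their log2 differences of oocytes minus SSC and 95% intervals were 0.25 (−0.20 to 0.69) for Lrrn4cl, 0.10 (−0.27 to 0.47) for Loxl4 and 0.07 (−0.31 to 0.45) for Twist2. For Medag the difference was −0.16 (−0.66 to 0.34), for Klra4 −0.17 (−0.50 to 0.15), for Cdsn −0.36 (−0.78 to 0.07) and for Ccdc184 −0.00 (−0.35 to 0.34). Klra4, Ccdc184 and Loxl4 had no detected array in either group, so these values compare background. Only Twist2 among the 7 was detected on all arrays of both groups. Without SSC replicate 3 the count was 5, because Lrrn4cl was then called higher in oocytes (0.47, adjusted p = 0.0322) and Cdsn lower (−0.54, adjusted p = 0.0221). Of these, Lrrn4cl passed the filter only with the help of PFGC arrays.

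Lists of related genes were drawn up for 8 themes. Of the 83 genes measured besides the 10, 0 lay 2-fold above both groups in PFGC, as 0.713% of all genes did, and 1, the protease inhibitor gene Timp2, was called higher in PFGC than in both, as 0.758% of all genes were. Both counts are near the background. PFGC were 1.56-fold above oocytes for Timp2 (adjusted p = 0.0239) and 1.34-fold above SSC (adjusted p = 0.0375), and neither call is stable: the first is lost without PFGC replicate 1 or 2 or oocyte replicate 1 or 3, and the second without PFGC replicate 1 or 2, oocyte replicate 1 or any 1 SSC replicate. Over all genes, 52.1% were called in PFGC against SSC, and 12.3% in PFGC against oocytes (7.96% higher and 4.3% lower). With the replicate number as a block the shares are 60.6% against SSC and 21.1% against oocytes.

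Among 15 other metalloproteinase and inhibitor genes measured, 5 were called higher and 2 lower in PFGC than in SSC (4 to 7 in all with 1 array left out), and 1 higher and 1 lower in PFGC than in oocytes. With the replicate block these were 5 higher and 5 lower than in SSC, and 1 higher and 2 lower than in oocytes. Mmp13 (collagenase 3), which lies 3 genes from Mmp3 on chromosome 9, is the nearest measured gene on that side. It averaged 8.82 ± 0.29 in PFGC, 9.48 ± 0.08 in oocytes and 4.37 ± 0.03 in SSC (SD, n = 3 each). PFGC were at least 11.7-fold above SSC (adjusted p = 6.29e-09; the log2 difference of 4.45 became 0.97 with the dimmest kept probe), but Mmp13 was lower in PFGC than in oocytes by 0.66 (adjusted p = 0.0186), a call that leaving out PFGC replicate 2 or 3 or oocyte replicate 1 or 2 ends. The next gene on the other side, Mmp1a, had differences of 0.29 to oocytes (adjusted p = 0.34) and −0.09 to SSC (adjusted p = 0.718). Timp1, the secreted inhibitor of metalloproteinases, was 5.38-fold higher in PFGC than in SSC (adjusted p = 5.13e-07), with a difference of −0.13 to oocytes (adjusted p = 0.592).

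Of 12 lysyl oxidase relatives and their substrates, 2 were called higher and 2 lower in PFGC than in SSC, and 0 in PFGC against oocytes (limma; 2 higher and 1 lower at an unadjusted p under 0.05). With the replicate block 4 were called higher and 2 lower than in SSC, and 1 higher and 1 lower than in oocytes (Eln and Col3a1). Eln, the elastin gene, was lower in PFGC than in SSC by 1.40 (adjusted p = 3.73e-05), and Plod2, a collagen lysyl hydroxylase, was higher by 1.01 (adjusted p = 0.0019). Lox, the founding enzyme of the family, differed by 0.50 from SSC (adjusted p = 0.0745, and 0.0135 with the block) and by −0.02 from oocytes (adjusted p = 0.963).

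The 16 other YAP and TEAD target genes measured were split. In PFGC against SSC, 7 were called higher and 4 lower, with a median of 0.37, and in PFGC against oocytes 2 were called higher and 2 lower. With the replicate block these were 8 higher and 4 lower than in SSC, and 2 higher and 4 lower than in oocytes, where Fjx1 (−0.53, adjusted p = 0.0209) and Crim1 joined the lower ones. Wwc1 was higher in PFGC than in SSC by 1.36 (adjusted p = 0.000249) and Fjx1 by 1.32 (adjusted p = 9.81e-05). The much-used targets Ccn2 and Ccn1 differed by 0.72 (adjusted p = 0.0024) and −0.14 (adjusted p = 0.302) from SSC, and by −0.23 (adjusted p = 0.352) and −0.18 (adjusted p = 0.329) from oocytes. Nuak2, a kinase gene, stood 2.50-fold higher in PFGC than in oocytes (adjusted p = 0.000657) and 4.62-fold lower than in SSC (adjusted p = 1.82e-06). Igfbp3 and Rbms3 were the 2 called lower than in oocytes, by 0.73 (adjusted p = 0.0293) and 0.59 (adjusted p = 0.0152), and both calls are lost without PFGC replicate 3 or oocyte replicate 2, Igfbp3 also without PFGC replicate 1 or oocyte replicate 1 or 3.

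Among 16 genes of mesenchymal transcription factors besides Twist2, 10 were called higher and 1 lower in PFGC than in SSC, with a median of 0.94, and 0 were higher and 2 lower in PFGC than in oocytes (1 and 8 at an unadjusted p under 0.05). With the replicate block (limma) the first comparison had 10 higher and 2 lower, and the second became 1 higher and 6 lower, Tcf21 being higher and Twist1, Snai1, Zeb2, Foxc1, Msc and Id2 lower. Msc, of the musculin repressor, was 10.9-fold higher in PFGC than in SSC (adjusted p = 7.59e-08) and lower than in oocytes by 0.63 (adjusted p = 0.0324). Twist1, the closest relative of Twist2, was higher in PFGC than in SSC by 0.39 (adjusted p = 0.0241, lost without PFGC replicate 1 or 2 or SSC replicate 3) and differed from oocytes by −0.42 (adjusted p = 0.0536). Zeb2 was lower in PFGC than in oocytes by 0.79 (adjusted p = 0.0302), but leaving out any 1 of the 6 arrays compared ends that call, and leaving out PFGC replicate 2 or any 1 oocyte replicate ends that of Msc.

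Cornified envelope genes (7 besides Cdsn) had 3 called higher and 2 lower in PFGC than in SSC, and 1 lower than in oocytes. Sprr1a, a small proline-rich envelope protein, was at least 3.98-fold above SSC in PFGC (adjusted p = 3.95e-06) and lower than in oocytes by 0.99 (adjusted p = 0.0178, lost without oocyte replicate 3). With the replicate block 4 were called higher than in SSC and 2 lower, and Krt10 was 1 called higher than in oocytes. Of the 22 genes of this list with a probe, 15 were detected on no PFGC array, among them Dsg1a, Dsc1 and Pkp1, which build the same junctions, and the corneodesmosin-cutting proteases Klk5 and Klk7.

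Fat cell formation was represented by 14 genes besides Medag. In PFGC against SSC 6 were called higher and 3 lower, and in PFGC against oocytes 1 higher and 2 lower (3 lower with the replicate block). Cebpb and Pparg, transcription factors that drive fat cell differentiation, were 8.09-fold (adjusted p = 1.87e-06) and 5.50-fold (adjusted p = 2.1e-07) higher in PFGC than in SSC, and differed from oocytes by −0.44 (adjusted p = 0.218, and 0.0203 with the block) and −0.35 (adjusted p = 0.107). Dlk1, which restrains fat cell differentiation, was 2.84-fold higher in PFGC than in oocytes (adjusted p = 0.00135) and 4.57-fold lower than in SSC (adjusted p = 1.02e-05). The others called lower in PFGC than in SSC were Cebpd, by 0.88 (adjusted p = 0.00255), and Ebf1, by 1.53 (adjusted p = 0.000387), so the list did not move in 1 direction. Fabp4, Adipoq and Plin1, genes of mature fat cells, were detected on no array of any group. Lpl and Plin2 of the same list were detected on all 3 arrays of each group. Plin2 was called higher in PFGC than in SSC (2.29-fold, adjusted p = 0.000431), and Lpl was not (−0.02, adjusted p = 0.938).

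Lrrn4cl was listed with the leucine-rich repeat neuronal genes, and how near they are to it in sequence was not examined. The 2 of them that were measured were both called higher in PFGC than in SSC, and 1 was called lower than in oocytes. Lrrn1 was higher in PFGC than in SSC by 2.33 (adjusted p = 2.1e-05), and Lrrn3 was at least 1.88-fold above SSC (adjusted p = 3.77e-05) and lower than in oocytes by 0.64 (adjusted p = 0.0158, lost without PFGC replicate 3 or oocyte replicate 2 or 3). Lrrn4, the gene Lrrn4cl is named after, was detected on no PFGC array.

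**Figure D4:**
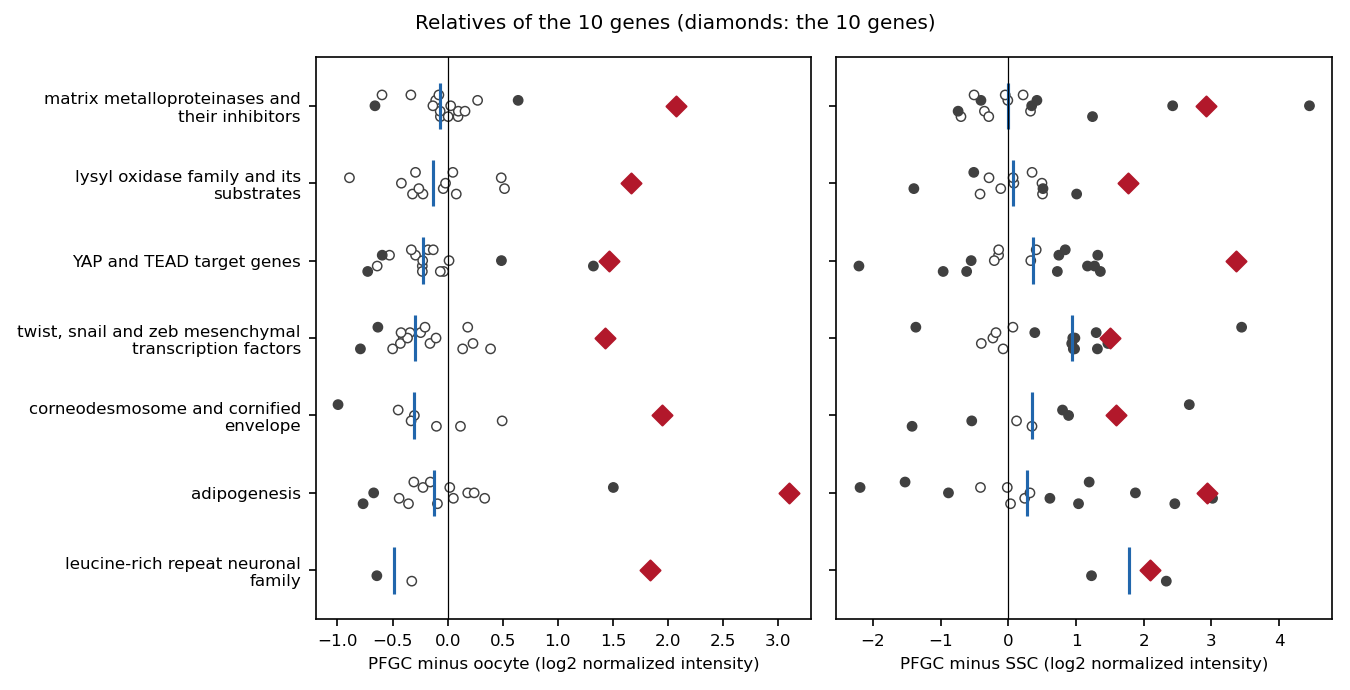
Differences in log2 normalized intensity of PFGC minus oocytes (left) and PFGC minus SSC (right) for the genes of 7 related lists with at least 2 genes measured besides the 10; filled circles passed limma at adjusted p under 0.05, open circles did not, the blue bar is the median of the circles and red diamonds are the 7 chosen genes that these lists hold. Each diamond lies right of the circles of its own list in the left panel, a place that the rule that chose the genes favours. In the right panel Mmp13, Msc, Cebpb, Sprr1a and Lrrn1 lie beyond the diamond of their own list, while Loxl4 and Ankrd1 lie right of their circles.

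Markers of other cell types were read beside the 10 genes, for each whole list. The 10 leukocyte genes measured summed to 1374 to 1580 in PFGC, 2064 to 2330 in oocytes and 1383 to 1592 in SSC (normalized intensity), with 0 of 10 called higher and 4 lower in PFGC than in oocytes (limma; 0 and 5 at an unadjusted p under 0.05). Of the 14 leukocyte genes with a probe, Ptprc, Cd53, Itgam, Adgre1, Cd3e and Lsp1 were detected on no PFGC array. As many, Cd52, Laptm5, Coro1a, Lcp1, Lyz2 and Fcer1g, were detected on all 3. Against SSC, 2 genes were called higher in PFGC, Cd52 (2.34-fold) and Lcp1 (at least 1.30-fold). In the same comparison 2 were called lower, Coro1a and Cd3e (2 higher and 4 lower with the replicate block). Among keratinocyte genes, Krt5, Krt14, Krt1, Krt15, Ivl, Dsg3 and Sfn were detected on no PFGC array, and Krt10, Trp63 and Lor on all 3. Trp63 (4.75-fold, adjusted p = 1.03e-05, limma) and Lor (1.85-fold, adjusted p = 0.00139) were called higher in PFGC than in SSC. Col17a1 was called lower than in SSC (2.06-fold, adjusted p = 0.00291). The 5 keratinocyte genes measured, of which Krt10 was the brightest in PFGC (9.24), summed to 1039 to 1142 in PFGC, 845 to 985 in oocytes and 794 to 912 in SSC. The keratinocyte sum is thus highest in PFGC on every array, with 0 of 5 genes called in PFGC against oocytes (limma; 2 higher and 0 lower at an unadjusted p under 0.05), or 1 higher with the replicate block, Krt10. Its part in the PFGC level of Cdsn was not tested.

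Mesothelial and surface epithelial markers (9 measured) summed to 2885 to 3074 in PFGC, 3330 to 3731 in oocytes and 623 to 710 in SSC. Of these, 8 were called higher in PFGC than in SSC, and 1 was called higher and 1 lower in PFGC than in oocytes. Msln, the mesothelin gene, was the one higher than in both: it averaged 5.71 ± 0.17 in PFGC, 4.93 ± 0.20 in oocytes and 4.35 ± 0.08 in SSC (SD, n = 3 each), at least 1.42-fold above oocytes (adjusted p = 0.00617) and at least 1.36-fold above SSC (adjusted p = 1.83e-05). No oocyte or SSC array detected Msln, so it passed the filter through PFGC arrays alone. Its p-values (limma) therefore set a dim PFGC level against background. Fibroblast markers (13) summed to 19958 to 22528 in PFGC, 21934 to 23000 in oocytes and 25213 to 29331 in SSC, and smooth muscle and myoid markers (9) to 14545 to 16051 in PFGC, 16927 to 17379 in oocytes and 26906 to 31685 in SSC. Neither sum is highest in PFGC, although single genes were mixed. Of the fibroblast markers, 3 were called higher and 5 lower in PFGC than in SSC. Thy1 alone was called higher in PFGC than in oocytes (at least 2.06-fold), and 0 were called lower (1 lower with the replicate block). Of the smooth muscle and myoid markers, 1 was called higher and 4 lower than in SSC, and 0 against oocytes (1 lower with the block). Sertoli cell genes (9) summed to 7520 to 11368 in PFGC, 1088 to 1106 in oocytes and 44710 to 51531 in SSC, which is a PFGC level between the other groups. Rhox5 of this list was called higher in PFGC than in SSC (0.68, adjusted p = 0.00869, limma). It was also called higher than in oocytes (4.20, adjusted p = 8.2e-07), where 1 array detected it. The part of mesothelial, fibroblast, muscle or Sertoli cells in the levels of Mmp3, Loxl4, Ankrd1 and Twist2 was not tested.

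**Figure D5:**
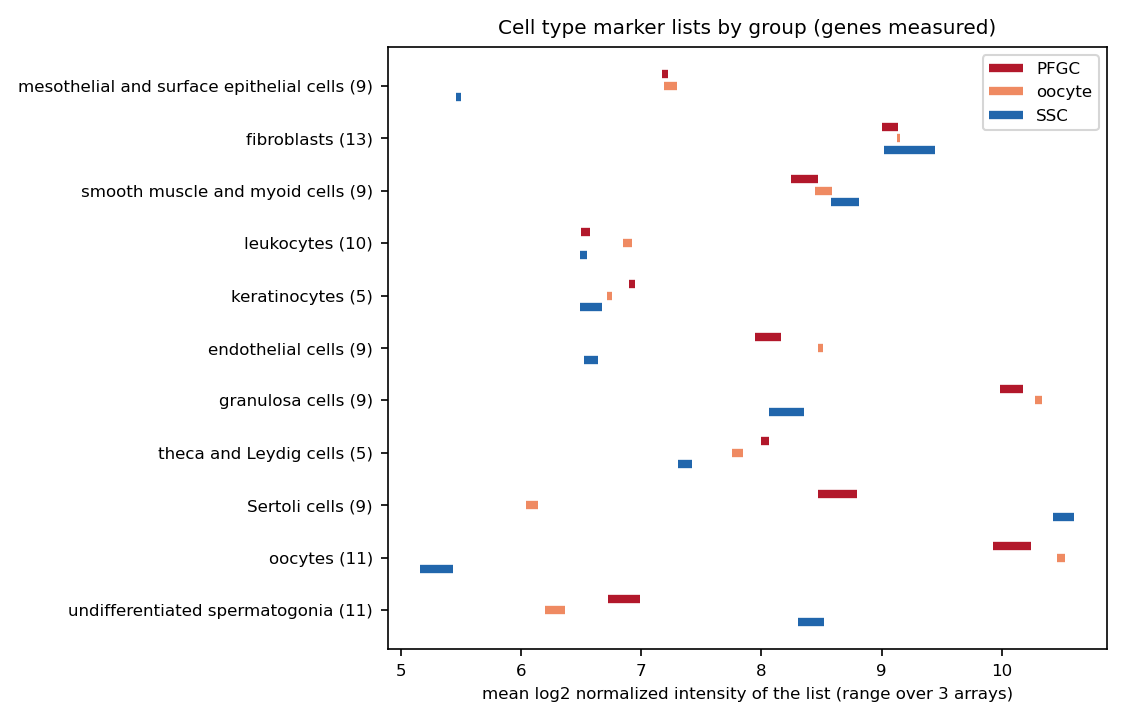
Mean log2 normalized intensity of 11 cell type marker lists with at least 2 genes measured (number of genes in brackets); each bar spans the lowest to the highest of 3 arrays (minimum drawn width 0.03), for PFGC (top), oocytes (middle) and SSC (bottom). The lists for keratinocytes and for theca and Leydig cells have their highest bar in PFGC, and those for leukocytes, endothelial cells and granulosa cells, among others, in oocytes. By summed intensity the theca and Leydig list was highest in oocytes instead (4276 to 4516, against 2811 to 3455 in PFGC).

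Over the 9 arrays, the genes whose pattern was most like the mean of the 10 were Prl2c4 (Pearson r = 0.998), Prl2c3 (0.997), Prl2c2 (0.997), Mpp1 (0.977) and Fam111a (0.971). Prl2c4 averaged 11.66 in PFGC, 5.28 in oocytes and 4.38 in SSC. Among the 45 pairs of the 10 genes r ran between 0.704 and 0.988, with a median of 0.943. These are descriptions over 9 arrays in 3 groups that share preparation and array, and the choice of genes by their PFGC level shapes them. For single genes the most alike were Mpp1 for Klra4 (0.987) and Ccdc184 (0.992), Prl2c4 for Medag (0.972) and Loxl4 (0.978), Prl2c3 for Mmp3 (0.985) and Lrrn4cl (0.969), Angptl6 for Cdsn (0.982), C130026I21Rik for Ankrd1 (0.992), Tcp11x2 for Twist2 (0.982) and Hebp1 for Arhgdib (0.989).

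On the chromosomes, the nearest measured protein-coding genes on both sides of each of the 10 were read in the order of the RefSeq annotation. Of these 20 neighbours, Pcgf5, next to Ankrd1 on chromosome 19, was the one called higher in PFGC than in oocytes (0.50, adjusted p = 0.0206), as 7.96% of all genes were. That call is lost without PFGC replicate 2 or 3 or oocyte replicate 1 or 2, and the difference turns to −0.74 with the dimmest Pcgf5 probe. Pcgf5 was lower than in SSC by 1.48 (adjusted p = 2.45e-06, but −0.31 and 0.297 with its dimmest probe). No neighbour was called higher in PFGC than in both groups, as 0.758% of all genes were.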

How the data were processed

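Per the file headers, one deposited table gives each probe a non-normalized signal intensity on every array beside its detection p-value, and the other a processed intensity. Per the submitters' processing notes the software was GenomeStudio, with its version and normalization not given in the sources used here. Deposited by the authors, the processed intensity is linear, has a median of 112 in every column and follows the ranks of the signal; it served as an alternative. Signals were background-corrected in limma 3.58.1 (R 4.3.3) by normexp with negative controls inferred from detection p-values and an offset of 16, quantile normalized and taken to log2. Probes with a detection p under 0.01 on at least 3 of 9 arrays were kept (19934), and the brightest per gene was used. Probe symbols were updated through a RefSeq table of GRCm38.p6 (99.78% of named probes matched), and 10378 probes were unnamed here. All 9 arrays entered 1 limma fit (lmFit, eBayes, two-sided), with Benjamini-Hochberg adjustment over 11077 genes and calls at adjusted p under 0.05. The number of arrays limits the precision: the median standard error of a log2 difference was 0.15. The fit was tested on simulated data.

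The members and lists were chosen with earlier results of these data known. Results of 1 planned gene list are not reported here. Named genes are the 10 genes, up to 3 called genes per list and comparison, well-known list members added after their values were seen, the closest patterns and the genes at the 2-fold limit. Replicate numbers come from the labels, and deviations of same-numbered samples from their group means correlated at 0.131 to 0.575 in all 9 pairs. Replicates 1 and 2 of different groups also correlated, at 0.044 to 0.246, while replicate 3 with 1 or 2 gave −0.442 to −0.181. The pattern thus mainly sets replicate 3 apart. Blocked counts are given beside the lists of related genes they change, and for named genes whose call changes. Alternatives covered normalization, background, offset, filter, probe choice, groups fitted, the block and each array left out.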

Additional observations from a re-analysis of the deposited data

How the results depend on the processing

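Of the 10 genes, the number at least 2-fold above both groups in PFGC was 4 with the processed intensity, 4 with no background correction and 2 of 2 measured when detection on all 9 arrays was required. It was 7 to 10 with 1 array left out: without any 1 PFGC array, Klra4 and Ccdc184 fell below 3 detected arrays and Loxl4 was read by its other probe. The count called between oocytes and SSC, 3, became 1 of 2 with detection on all 9 arrays, 4 with the mean of kept probes and 2 with the dimmest, and ranged from 3 to 5 with 1 array left out. Genes called in PFGC against oocytes, 1358, became 2334 with the replicate block and ranged from 517 to 1702 with 1 array left out (782 without PFGC replicate 3, 561, 587 and 873 without oocyte replicates 1, 2 and 3, and the lowest without PFGC replicate 2). The block changed no call of the 10 genes between oocytes and SSC.

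Values that changed sign were near 0 or came from another probe. Without normalization between arrays, oocytes minus SSC became 0.0057 for Medag and 0.0686 for Ccdc184. With 1 array left out it ranged from −0.3799 to 0.066 for Medag, from −0.0488 to 0.07 for Ccdc184 and from −0.0332 to 0.2621 for Twist2. With the dimmest kept probe per gene, an alternative chosen after seeing the data, the smaller PFGC difference of Medag was −1.6052, and Plod3 in PFGC minus SSC was −0.881, against −0.1848 with the mean of its probes. Pcgf5 in PFGC minus oocytes was −0.7421 with its dimmest probe and −0.1228 with the mean. Lower groups near the detection limit allow bounds only, and dim probes limit what these arrays can show.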
